A study of Mus musculus with 40 samples.

Results

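Prostaglandins, prostacyclin and thromboxane are short-lived lipid signals that are made from arachidonic acid and that act in inflammation, pain, blood flow and wound repair. To describe how cardiac fibroblasts express the enzymes of this pathway, 10 genes were followed by name: *Ptgs1*, *Ptgs2*, *Ptges*, *Ptges2*, *Ptges3*, *Ptgis*, *Ptgds*, *Tbxas1*, *Hpgd* and *Cbr1*. The rule that chose them names the genes and uses no measured value, though earlier results of these data were known when it was set. They are 10 of 55414 gene identifiers in the count table. All 10 were among the 25210 genes that were tested, which have at least 10 counts in total over 40 libraries.

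Fibroblasts were isolated from hearts of adult C57BL/6J TAK1fl/fl mice, in which exon 2 of *Map3k7*, the gene for TGFβ-activated kinase 1 (TAK1), lies between loxP sites. All groups thus carried the floxed allele. The cells were grown with 20 ng/ml bFGF, used at passage 1, and transduced with an adenovirus that expresses either LacZ (control) or iCre (Cre recombinase) from a CMV promoter. They were then serum-starved and kept for 24 h without ligand (CTRL) or with a ligand, namely bFGF at 20 ng/ml, TGFβ at 10 ng/ml, IL-1β at 15 ng/ml, or else TNFα at 10 ng/ml. Virus and ligand gave 10 groups with 4 replicates per group, and polyadenylated RNA was sequenced. Replicate numbers tied libraries of different groups together, so that values are given in the order of replicates 1 to 4 and LacZ and iCre libraries of 1 number are called a pair. The study describes the replicates as biological replicates from male mice. What a replicate number shared between groups stands for is not stated, and p-values measure the spread between these libraries. In the library names, replicate 1 of all groups carries a separate series of numbers from the other replicates.

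The libraries held 25360947 to 66160732 counts on genes (median 36183962). Summed over 8 fibroblast markers, the libraries held from 10070 to 66861 CPM (counts scaled to the TMM-normalised library size), and all 8 markers were detected in every library. *Map3k7* counts include all exons of the gene, so reads of the recombined allele are counted as well. *Map3k7* was lower in iCre than in LacZ fibroblasts under TGFβ (log2 fold change −0.67, SE 0.08, adjusted p = 0.00088, quasi-likelihood test of edgeR), IL-1β (−0.82, adjusted p = 0.000274) and TNFα (−0.71, adjusted p = 0.000829). In CTRL (−0.28, adjusted p = 0.137) and with bFGF (−0.40, adjusted p = 0.351) it missed the threshold of 0.05 in this test and passed when the replicate number was added as a block (adjusted p = 0.00393 and 0.000409).

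As background, phospholipases release arachidonic acid from membranes, and the cyclooxygenases COX-1 and COX-2, encoded by *Ptgs1* and *Ptgs2*, convert it to prostaglandin H2. COX-1 is known as the constitutive and COX-2 as the inducible enzyme, and fibroblasts are a classical source of COX-2 in inflamed tissue. Terminal enzymes then make single products: *Ptges* (microsomal prostaglandin E synthase 1), *Ptges2* and *Ptges3* (the cytosolic synthase, better known as the Hsp90 co-chaperone p23) belong to prostaglandin E2, *Ptgis* makes prostacyclin, *Ptgds* prostaglandin D2 and *Tbxas1* thromboxane A2. *Hpgd*, 15-hydroxyprostaglandin dehydrogenase, inactivates prostaglandins, and *Cbr1*, a carbonyl reductase, reduces prostaglandin E2 and many other carbonyl compounds. TAK1 is a kinase that passes signals of IL-1β, TNFα and TGFβ receptors to NF-κB and to the stress kinases.

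On GRCm38, *Ptgs1* (ENSMUSG00000047250) lies on chromosome 2 from 36230426 to 36252272 and *Ptgs2* (ENSMUSG00000032487) on chromosome 1 from 150100031 to 150108227, both on the forward strand. *Ptges* (ENSMUSG00000050737) lies on the reverse strand of chromosome 2 from 30889471 to 30929863. The nearest protein-coding gene to *Ptgs2* is *Pla2g4a*, the gene for the cytosolic phospholipase A2 that feeds the pathway, at a distance of 138741 bases. To show the sequence around the annotated starts of the cyclooxygenase genes and of *Ptges*, their windows from 250 bases before to 50 bases after the start in RefSeq (GRCm38.p6) are printed 5′ to 3′ on the strand of the gene. Of the 10 genes, 9 had such a window. Letters in capitals mark matches, on either strand, to a GC box (GGGCGG) or to a CRE core (TGACG), and searches for a TATA box (TATAAA), an AP-1 site (TGANTCA) and a κB site by its 10-base consensus found no match in these 3 windows.
Ptgs2, chr1:150099781-150100080, + strand: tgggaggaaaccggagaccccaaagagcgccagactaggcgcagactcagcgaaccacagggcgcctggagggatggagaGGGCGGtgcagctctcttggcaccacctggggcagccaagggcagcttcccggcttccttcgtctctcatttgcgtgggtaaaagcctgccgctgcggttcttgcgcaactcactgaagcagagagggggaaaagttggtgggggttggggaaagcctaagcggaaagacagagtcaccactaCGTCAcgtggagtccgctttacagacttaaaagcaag
Ptgs1, chr2:36230176-36230475, + strand: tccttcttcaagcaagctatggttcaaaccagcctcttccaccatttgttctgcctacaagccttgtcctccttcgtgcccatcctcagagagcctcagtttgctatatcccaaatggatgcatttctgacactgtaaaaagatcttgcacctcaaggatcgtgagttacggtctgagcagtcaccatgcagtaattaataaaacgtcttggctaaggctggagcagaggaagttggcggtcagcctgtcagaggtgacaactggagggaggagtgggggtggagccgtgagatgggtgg
Ptges, chr2:30903248-30903547, - strand: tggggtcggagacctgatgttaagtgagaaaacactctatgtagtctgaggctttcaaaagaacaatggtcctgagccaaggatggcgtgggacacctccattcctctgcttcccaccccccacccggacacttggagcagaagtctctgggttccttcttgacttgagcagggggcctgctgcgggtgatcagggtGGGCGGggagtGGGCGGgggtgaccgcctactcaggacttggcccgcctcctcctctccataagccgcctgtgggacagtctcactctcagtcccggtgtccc
The *Ptgs2* window held 1 GC box and 1 CRE core, the *Ptges* window 2 GC boxes and the *Ptgs1* window no match. The *Ptges* window lies inside the span of that gene in GENCODE, which also has a more distal start. No printed matches overlapped. Of 32851 windows of the same length, 35.7% held a GC box, 20.8% a CRE core, 13.6% a TATA box, 7.81% an AP-1 site and 8.46% a κB site. The windows differed in GC content, at 59.3% for *Ptgs2*, 50.7% for *Ptgs1* and 60% for *Ptges*. These matches describe letters in a window, and neither binding nor the start that the cells use was measured.

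Per kilobase of exon, *Ptgis* was the most abundant of the 10 genes in CTRL of LacZ fibroblasts, at a mean level of 103 CPM per kb. *Ptges3* (23.3 CPM per kb), *Ptgs1* (21.4) and *Cbr1* (14.6) followed, and *Ptges* (6.92) and *Ptgs2* (2.48) were lower. The group means of *Ptgs2* spanned a 57.6-fold range over the 10 groups, from 11.4 to 654 CPM, the widest among the 7 genes that exceeded 10 CPM in all group means. The range was 22.7-fold for *Ptges*, 5.45-fold for *Ptgs1*, 3.92-fold for *Ptges2*, 2.79-fold for *Ptges3*, 2.23-fold for *Ptgis* and 2.07-fold for *Cbr1*. *Hpgd* (1469 counts over all libraries), *Tbxas1* (847 counts) and *Ptgds* (290 counts, with 11 libraries at 0) were near the limit of detection.

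**Figure D1:**
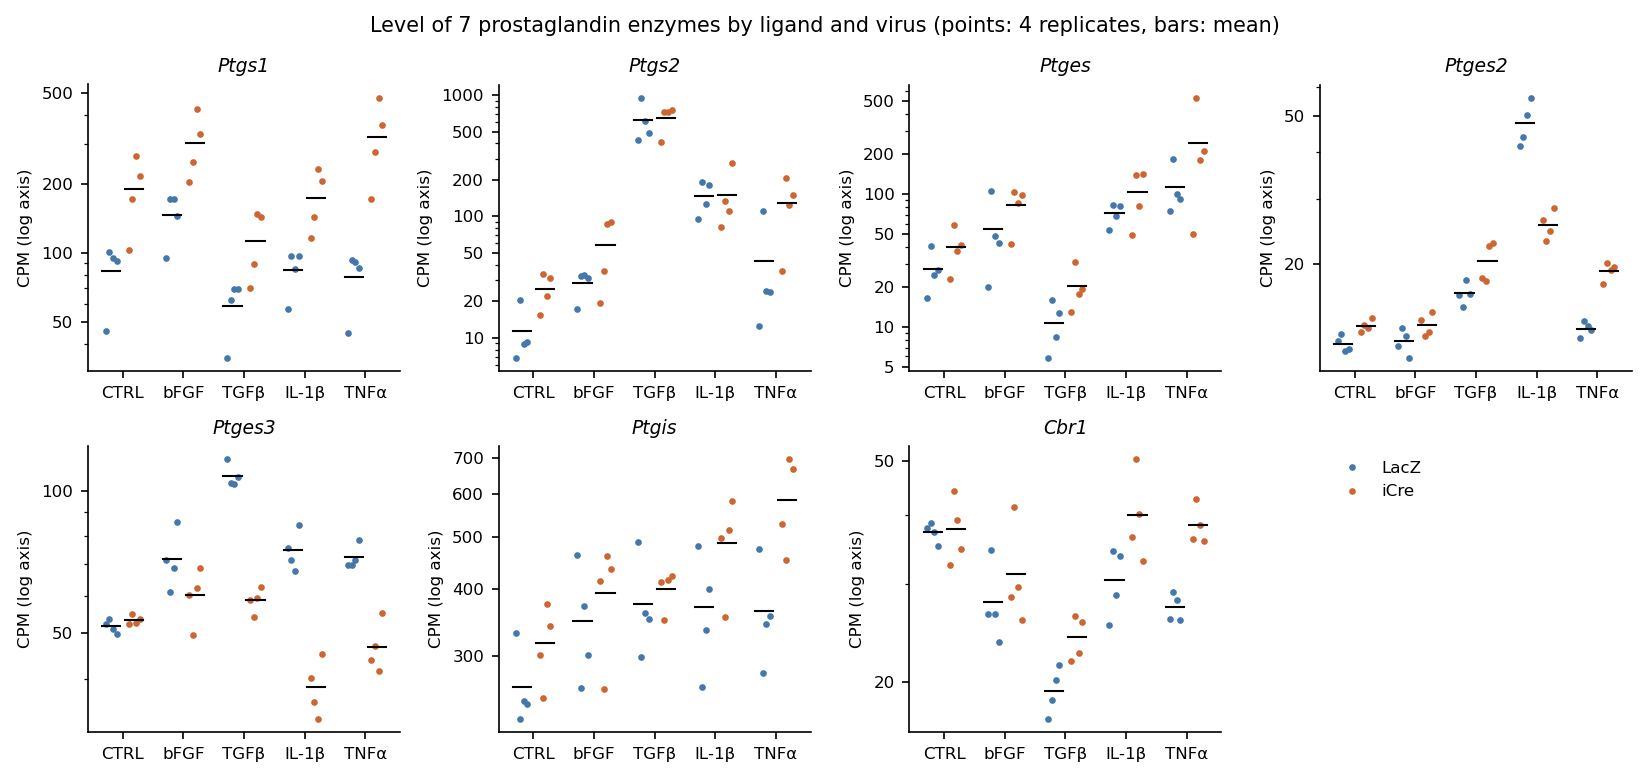
CPM on a log axis of 7 enzymes in 5 treatments, for LacZ (blue) and iCre (orange) fibroblasts. Points are the 4 replicates in the order 1 to 4 and bars are means. Ptgs2 reached its highest means with TGFβ (621 CPM in LacZ, 654 CPM in iCre), Ptges with TNFα in iCre (244 CPM) and Ptges2 with IL-1β in LacZ (48 CPM).

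To determine which enzymes respond to the ligands when TAK1 is intact, each ligand was compared with CTRL in LacZ fibroblasts. With TGFβ, 8 of the 10 genes passed the threshold (4 higher, 4 lower), against 36.9% of all genes tested. With IL-1β it was 6 (4 higher, 2 lower, against 20.7%), with TNFα 5 (2 higher, 3 lower, against 21.3%) and with bFGF 4 (2 higher, 2 lower, against 11.6%). Among the better-expressed genes that the filterByExpr filter of edgeR keeps, the shares were higher, at 59.2%, 37.5%, 39% and 22.6% in the same order. With the replicate block the counts were 9, 8, 7 and 8, against 42%, 33.5%, 35.5% and 27.3% of all genes. The median log2 fold change of the 10 genes was −0.26 with TGFβ, 0.26 with IL-1β, 0.03 with TNFα and 0.23 with bFGF, beside −0.17, −0.10, −0.08 and −0.03 over all genes tested. The 4 comparisons share the CTRL libraries.

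In iCre fibroblasts, 7 of 10 genes passed with TGFβ (3 higher, 4 lower, against 37.4% of all genes), 6 with IL-1β (4 higher, 2 lower, against 16.3%), 6 with TNFα (4 higher, 2 lower, against 27%) and 1 with bFGF (lower, against 2.42%). Among genes kept by filterByExpr the shares were 63.1%, 29.9%, 47.7% and 5.28%. With the block, the counts were 9 with TGFβ, 7 with IL-1β, 7 with TNFα and 7 with bFGF, against 41.5%, 33.8%, 36.1% and 16.7% of all genes. Over all 40 gene and ligand pairs, 23 were called in LacZ and 20 in iCre fibroblasts, and 32 and 30 with the block. Without replicate 3 these counts were 13 and 10, and without replicate 4 they were 15 and 10. The share of all genes called fell too. Without replicate 3 it was 25.9% (TGFβ), 9.52% (IL-1β), 10.5% (TNFα) and 1.32% (bFGF) in LacZ, and 27%, 7.55%, 14% and 0% in iCre. Without replicate 4 it was 26.9%, 9.22%, 10.8% and 2.48% in LacZ, and 28.6%, 8.74%, 16.5% and 0% in iCre.

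**Figure D2:**
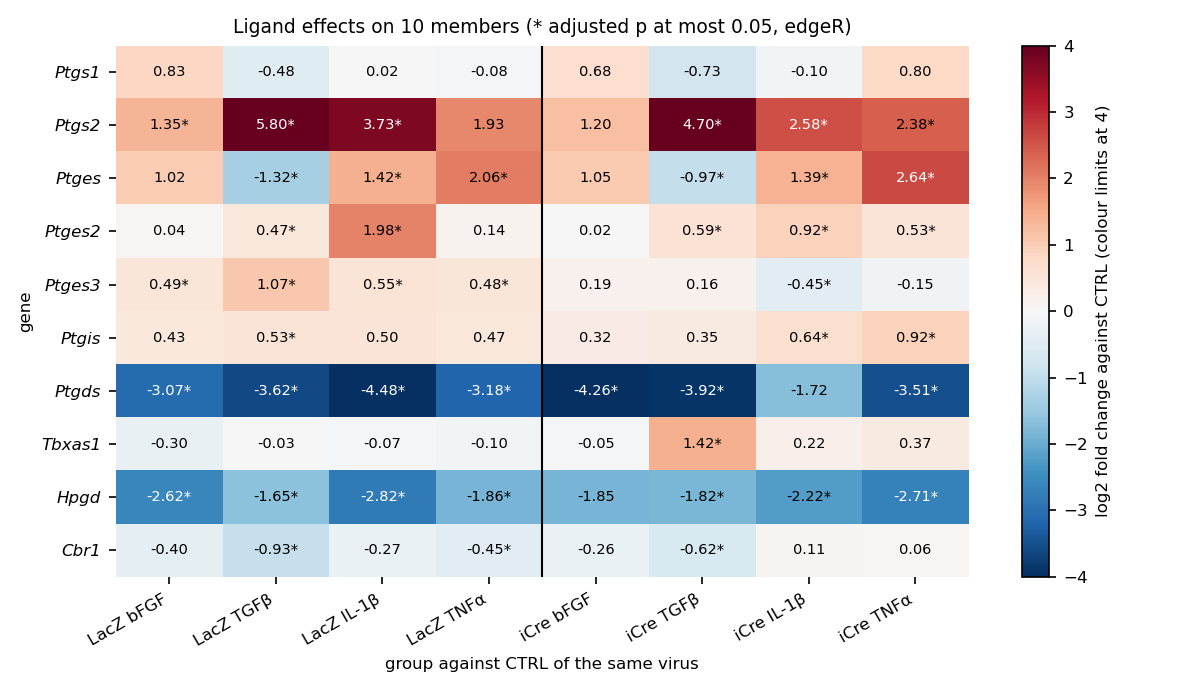
Log2 fold change of the 10 genes (rows) for each ligand against CTRL of the same virus (columns), with the value in each cell and an asterisk where the adjusted p of edgeR was at most 0.05. Ptgs2 was called in 3 of 4 ligands in each virus, and values of Ptgds, Hpgd and Tbxas1 rest on few counts.

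To describe the difference between the viruses, iCre was compared with LacZ under each treatment. No group had iCre without the floxed allele, so loss of TAK1 and expression of Cre itself cannot be told apart. No gene of the 10 was called in CTRL (0.0754% of all genes, 19 genes) or with bFGF (0% of all genes, with 2585 at an unadjusted p under 0.05 and 481 called by DESeq2) by edgeR. At an unadjusted p under 0.05 it was 2 of the 10 in each, DESeq2 called 2 and 1 (5.34% and 1.91% of all genes), and the block called 3 and 4 (14.5% and 13.9%). With TGFβ 1 of 10 was called (8.37% of all genes), and it was 3 of 10 under IL-1β (16.1%) and 5 of 10 under TNFα (27.3%). Among genes kept by filterByExpr the shares were 20.1%, 30.8% and 47.4%. With the block these counts were 5, 6 and 7 (20.8%, 29.5% and 32.2% of all genes), and over the 50 gene and treatment pairs the calls rose from 9 to 25. The block was the setting that moved this count furthest, and the pairs behind it are given for each gene. The interaction, which tests whether a ligand's effect differs between the viruses, was called for no gene of the 10 with bFGF (0% of all genes by edgeR and 0 genes by DESeq2, with 765 genes but 0 of the 10 at an unadjusted p under 0.05 in edgeR), for 1 under TGFβ (4.51%), for 2 under IL-1β (7.71%) and for 3 under TNFα (16.1%). With the block these 3 counts were 2, 3 and 4 (8.04%, 16.9% and 25.1%), and no gene was called with bFGF (0%).

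Cell type markers moved between these groups too. With TNFα, where 27.3% of all genes were called, iCre had lower levels than LacZ for 5 of 8 fibroblast markers and a higher level for 1, and the summed level of the list was between 10070 and 18507 CPM in iCre and between 23347 and 30703 CPM in LacZ. Of 5 smooth muscle and pericyte markers, 3 were higher and 1 was lower, with a summed level of 353 to 1235 CPM in iCre and 143 to 501 CPM in LacZ. With IL-1β (16.1% of all genes), 3 of 8 fibroblast markers were lower and none higher in iCre, with a summed level of 20425 to 31876 CPM against 34731 to 66861 CPM in LacZ. Of the smooth muscle and pericyte markers 2 were higher and none lower, with 451 to 1035 CPM against 321 to 856 CPM. With the block, 4 to 6 of the 8 fibroblast markers were lower in iCre in each of the 5 treatments, and at most 1 was higher, against 13.9% to 32.2% of all genes called. The summed level was lower in the iCre library of 19 of 20 pairs for the fibroblast list and 18 of 20 for 7 macrophage and leukocyte markers, and higher in 19 of 20 for the smooth muscle and pericyte list and 16 of 20 for 5 mesothelial and epicardial markers. The macrophage list had no gene called lower without the block, and with it 4 of 7 were lower in CTRL and 5 of 7 with IL-1β (14.5% and 29.5% of all genes called). The mesothelial list was low throughout, at 1.92 to 11.3 CPM, but with IL-1β it was at 3.31 to 7.85 CPM in iCre and at 1.92 to 2.85 CPM in LacZ, without overlap, with 1 of 5 genes called higher and 4 of 5 with the block. Sums of 5 endothelial markers (lower in iCre in 14 of 20 pairs) and 3 cardiomyocyte markers (9 of 20) did not overlap between the viruses in CTRL and with IL-1β, respectively. Bulk counts cannot tell fewer cells of a type from less RNA per cell. The part of these markers in the differences between the viruses was not tested.

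*Ptgs1*, the gene for COX-1, had the higher level in the iCre library of 20 of 20 pairs, with a median ratio of 2.20 (range 1.44 to 5.22). In CTRL it was at 45.6, 101, 95.1 and 91.7 CPM in LacZ and at 103, 173, 264 and 217 CPM in iCre fibroblasts, and with TNFα at 44.9, 92.7, 91.4 and 86.2 CPM and 172, 275, 477 and 360.2 CPM. In both treatments the ranges of LacZ and iCre did not overlap, and the same held with bFGF, TGFβ and IL-1β. The difference was called with TNFα (log2 fold change 2.05, SE 0.32, adjusted p = 0.00135) and with IL-1β (log2 fold change 1.05, SE 0.23, adjusted p = 0.0115). The IL-1β call was lost without replicate 3 (adjusted p = 0.0872) or 4 (0.0565). With the block, CTRL (1.16, adjusted p = 2.67e-07), bFGF (1.03, adjusted p = 1.84e-07) and TGFβ (0.89, adjusted p = 6.25e-07) passed as well, and DESeq2 called these 3 too (adjusted p = 0.00621, 0.013 and 0.0125). Replicate 1 was the lowest library in each of the 10 groups. Exons of *Ptgs1* overlap those of a gene on the opposite strand by 148 bases.

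The ligands moved *Ptgs1* less. None of its 8 ligand comparisons passed in the edgeR test of 2 groups with no covariate. DESeq2 called bFGF in LacZ (adjusted p = 0.0191) and TGFβ in iCre (0.0481), and edgeR with the GC correction also called the latter (0.0478). Without replicate 1, the lowest library, bFGF and TGFβ passed in LacZ (0.0121 and 0.00272) and TGFβ and TNFα in iCre (0.0304 and 0.0329). In LacZ fibroblasts it was at 95.3, 172, 173 and 145 CPM with bFGF, above CTRL in 4 of 4 replicate numbers (log2 fold change 0.83, adjusted p = 0.0648, with the block 8.22e-07). TGFβ was below CTRL in 4 of 4, at 34.8, 62, 69.5 and 69.4 CPM (−0.48, adjusted p = 0.179, with the block 0.000557). IL-1β (0.02, SE 0.24) and TNFα (−0.08, SE 0.27) left its log2 level close to that of CTRL in LacZ fibroblasts. In iCre fibroblasts bFGF was above CTRL in 4 of 4 replicate numbers (0.68, adjusted p = 0.273, with the block 1.33e-05) and TGFβ below it in 4 of 4 (−0.73, adjusted p = 0.0828, with the block 2.73e-05). With TNFα it was above CTRL in 4 of 4 (0.80, adjusted p = 0.109, with the block 1.98e-05). The interaction of TNFα with iCre was 0.87 (SE 0.48, adjusted p = 0.261) and passed with the block (adjusted p = 0.000937) and without replicate 1 (0.0405).

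*Ptgs2*, the gene for COX-2, responded most to TGFβ. In LacZ fibroblasts its level was 6.83, 20.4, 8.93 and 9.27 CPM in CTRL, 425, 956, 611 and 491 CPM with TGFβ and 94.4, 191, 128 and 182 CPM with IL-1β. Every TGFβ and IL-1β library lay above every CTRL library, with log2 fold change 5.80, SE 0.41, adjusted p = 5.09e-06 for TGFβ and log2 fold change 3.73, SE 0.36, adjusted p = 0.000105 for IL-1β. With bFGF it was at 17.1, 32.4, 32.8 and 31.2 CPM (log2 fold change 1.35, SE 0.33, adjusted p = 0.0277), and this call was lost without replicate 3 (adjusted p = 0.198) or 4 (0.186). With TNFα it was at 12.5, 112, 24.3 and 24 CPM, where replicate 2 stood apart from the others. The TNFα effect was not called (log2 fold change 1.93, SE 0.64, adjusted p = 0.0602), whereas with the block it was (1.58, adjusted p = 3.7e-07), with 4 of 4 replicate numbers higher than in CTRL. It was also called by DESeq2 (adjusted p = 0.0288) and in the fit of all 40 libraries (0.00981), and without replicate 2 the value was smaller and called (1.27, adjusted p = 0.0027).

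In iCre fibroblasts the order of the group means of *Ptgs2* was the same (TGFβ, IL-1β, TNFα, bFGF, CTRL), and IL-1β and TNFα libraries overlapped in both viruses. It was at 15.3, 33.4, 22.3 and 31 CPM in CTRL, 414, 724, 729 and 749 CPM with TGFβ, 81.6, 133, 111 and 275 CPM with IL-1β and 35.6, 208, 123 and 151 CPM with TNFα. The log2 fold changes were 4.70 (SE 0.29, adjusted p = 1.69e-06), 2.58 (SE 0.38, adjusted p = 0.00197) and 2.38 (SE 0.46, adjusted p = 0.00403), and no library with these ligands overlapped with CTRL. With bFGF it was above CTRL in 4 of 4 replicate numbers (1.20, adjusted p = 0.216, with the block 0.00395).

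Between the viruses, *Ptgs2* was higher in iCre in 4 of 4 pairs in CTRL (1.16, SE 0.35), with bFGF (1.03, SE 0.44) and with TNFα (1.61, SE 0.69). These 3 differences were not called in the test without a block and passed with it (adjusted p = 5.68e-06, 0.00126 and 0.000726, against 0.185, 0.468 and 0.12). DESeq2 also called CTRL (adjusted p = 0.0206), and the fit of all 40 libraries TNFα (0.0212). Without replicate 2 both passed, CTRL with 1.45 (adjusted p = 0.0133) and TNFα with 2.35 (0.00495). With TGFβ (0.05, SE 0.26) and IL-1β (0.00, SE 0.35) the fitted difference was near 0, and iCre was higher in 2 and 1 of 4 pairs. A correction for transcript GC content together with the block gave 0.60 (adjusted p = 0.00371) and 0.38 (adjusted p = 0.0398) for these. The interactions were −1.12 for TGFβ and −1.16 for IL-1β, and passed with the block (adjusted p = 0.00365 and 0.00416) but not without it (0.243 and 0.25) nor with the block and the GC correction (0.15 and 0.0809).

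**Figure D3:**
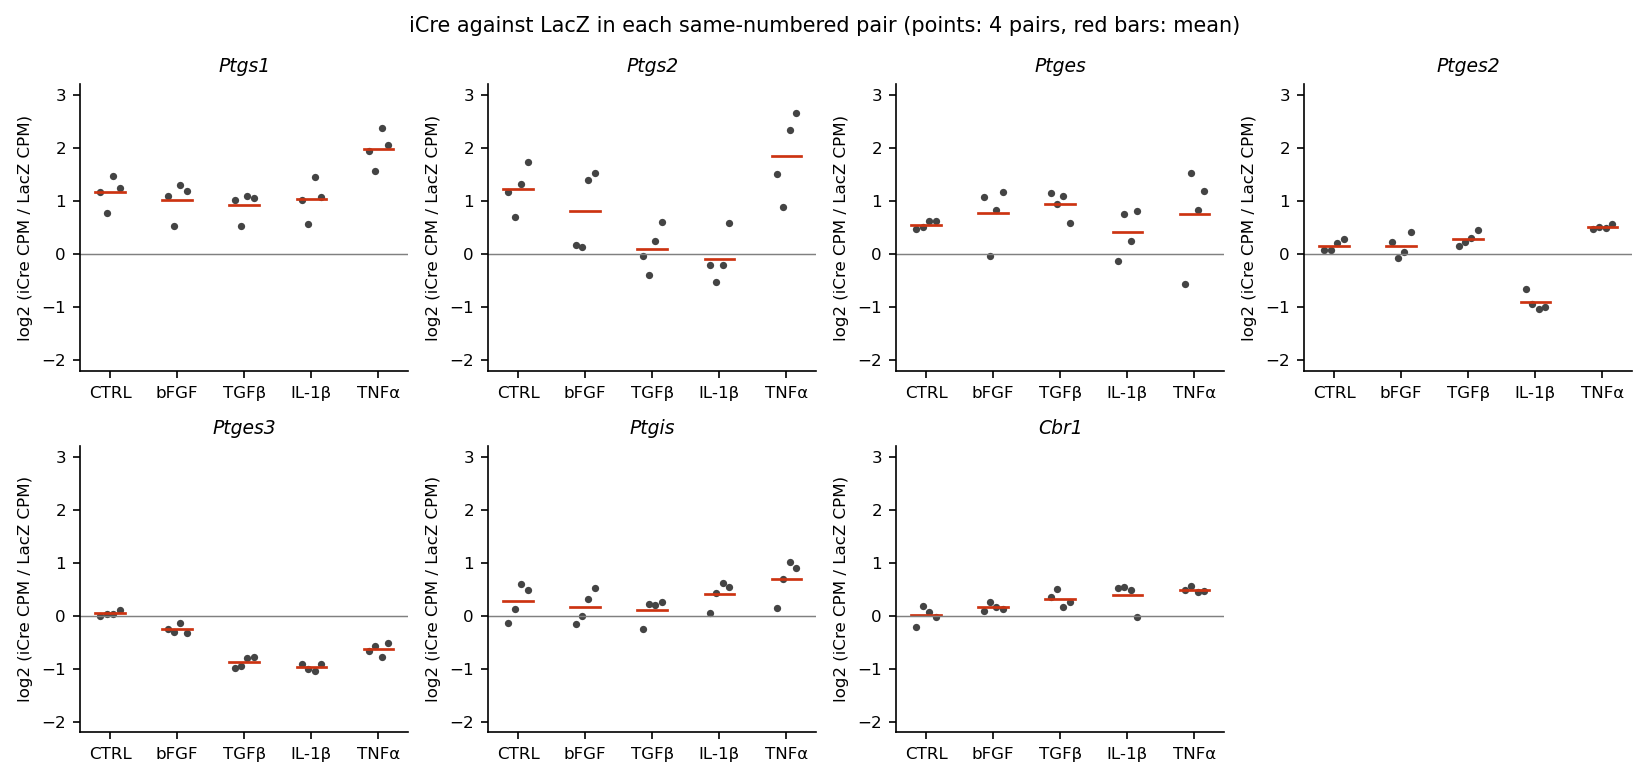
Log2 ratio of iCre to LacZ CPM in each same-numbered pair (points, 4 per treatment, in the order 1 to 4) with the mean as a red bar, for 7 enzymes. Ptgs1 was above 0 in 20 of 20 pairs and Ptges3 below 0 in 17 of 20. Ptges2 was below 0 in 4 of 4 pairs with IL-1β.

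The balance of both cyclooxygenase transcripts was read as the ratio of *Ptgs2* to *Ptgs1*, each per exonic length. This ratio describes RNA only. For protein, the study reports that IL-1β raised COX2 further in TAK1-deficient than in TAK1-replete fibroblasts. In LacZ fibroblasts the ratio was 0.127, 0.172, 0.0796 and 0.0857 in CTRL, 10.4, 13.1, 7.46 and 6 with TGFβ and 1.41, 1.68, 1.27 and 1.6 with IL-1β. *Ptgs2* was thus the rarer of both transcripts in each CTRL library and the more abundant in each TGFβ and IL-1β library. In iCre fibroblasts it was 0.126, 0.164, 0.0714 and 0.121 in CTRL, 4.99, 6.87, 4.18 and 4.41 with TGFβ and 0.598, 0.784, 0.404 and 1.14 with IL-1β. With IL-1β the iCre ratios lay below all LacZ ratios, a difference of −1.12 on the log2 scale (two-sided exact permutation test, p = 0.0286, the smallest that 4 against 4 libraries allow, and 0.143 adjusted over 5 treatments), and 4 of 4 pairs were lower. With TGFβ the difference was −0.81 (exact permutation p = 0.0571, adjusted 0.143), also lower in 4 of 4 pairs. In CTRL (0.07, exact permutation p = 0.943), with bFGF (−0.21, p = 0.629) and with TNFα (−0.14, p = 0.743) the groups overlapped.

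**Figure D4:**
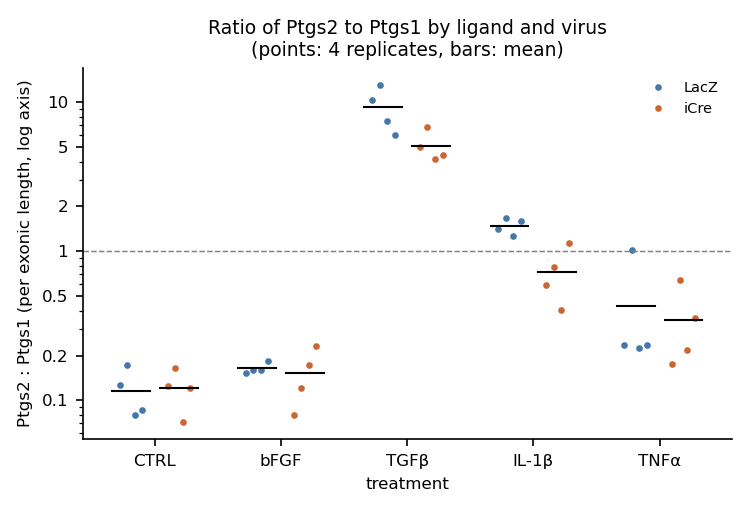
Ratio of Ptgs2 to Ptgs1, each as CPM per exonic length, on a log axis for 5 treatments in LacZ (blue) and iCre (orange) fibroblasts. Points are 4 replicates, bars are means and the dashed line marks equal levels. Mean ratios with TGFβ were 9.22 in LacZ and 5.11 in iCre, and with IL-1β 1.49 and 0.731.

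Among the prostaglandin E synthases, *Ptges* moved in opposite directions with TGFβ and with the inflammatory cytokines. In LacZ fibroblasts it was at 16.6, 40.9, 24.5 and 26.8 CPM in CTRL and at 5.85, 16.1, 8.33 and 12.7 CPM with TGFβ (log2 fold change −1.32, SE 0.32, adjusted p = 0.00863), and the ranges did not overlap. It rose to 54, 83.3, 68.5 and 81.4 CPM with IL-1β (log2 fold change 1.42, SE 0.24, adjusted p = 0.00238) and to 74.3, 184, 101 and 91.9 CPM with TNFα (log2 fold change 2.06, SE 0.32, adjusted p = 0.00168), again without overlap. *Ptges* and *Ptgs2* thus both rose with IL-1β, while with TGFβ *Ptgs2* rose and *Ptges* fell. In iCre fibroblasts the same directions were called, with −0.97 (adjusted p = 0.0251) for TGFβ, 1.39 (0.0229) for IL-1β and 2.64 (0.00861) for TNFα. All 3 iCre calls were lost without replicate 3 or 4 (adjusted p up to 0.11, 0.129 and 0.053), and that of IL-1β also under the GC correction (adjusted p = 0.0575). The iCre libraries with TNFα were spread widely, at 50.4, 534, 181 and 209.9 CPM, and replicate 2 was highest.

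With bFGF, *Ptges* was above CTRL in 4 of 4 replicate numbers in LacZ (1.02, adjusted p = 0.173) and in iCre fibroblasts (1.05, adjusted p = 0.12), and passed with the block (adjusted p = 0.000146 and 3.99e-07). DESeq2 called it in iCre fibroblasts (0.0235). Between the viruses *Ptges* was higher in iCre in 17 of 20 pairs, with a median ratio of 1.72. None of the 5 differences passed in the edgeR test with no covariate, while TGFβ passed by DESeq2 (adjusted p = 0.0482) and without replicate 2 (0.0399). With the block, CTRL (0.55), bFGF (0.76), TGFβ (0.91) and IL-1β (0.41) passed, with adjusted p-values of 3.77e-05, 0.000275, 8.88e-06 and 0.0109. The IL-1β value did not pass with the block and the GC correction (0.23, adjusted p = 0.249). With TNFα the difference was 1.13 (SE 0.57, adjusted p = 0.182, and 0.0685 with the block). The pairs were uneven there, with ratios of 0.678, 2.91, 1.79 and 2.28.

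*Ptges2*, the membrane-associated synthase 2, responded mainly to IL-1β. In LacZ fibroblasts it was at 12.4, 13, 11.7 and 11.9 CPM in CTRL and at 41.5, 43.9, 50.4 and 56.1 CPM with IL-1β (log2 fold change 1.98, SE 0.10, adjusted p = 3.23e-06). In iCre fibroblasts the values were 13.1, 13.7, 13.5 and 14.4 CPM in CTRL and 26.2, 23.1, 24.5 and 28.3 CPM with IL-1β (log2 fold change 0.92, SE 0.10, adjusted p = 0.000405). With IL-1β every iCre library was thus below every LacZ library and above every CTRL library. The difference between the viruses (log2 fold change −0.92, SE 0.11, adjusted p = 0.000497) and the interaction (log2 fold change −1.08, SE 0.13, adjusted p = 0.000107) were both called. TGFβ raised *Ptges2* slightly, by 0.47 in LacZ (adjusted p = 0.00347, and 0.0506 without replicate 3) and by 0.59 in iCre fibroblasts (adjusted p = 0.00177).

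With TNFα the pattern of *Ptges2* was the opposite of that with IL-1β, since it was higher in iCre (17.7, 20.2, 19.3 and 19.7 CPM) than in LacZ fibroblasts (12.6, 14.1, 13.7 and 13.3 CPM, log2 fold change 0.54, SE 0.09, adjusted p = 0.00226). In iCre fibroblasts TNFα raised it over CTRL (0.53, adjusted p = 0.00264), and by less with the GC correction (0.33, adjusted p = 0.0265). The interaction with TNFα (log2 fold change 0.38, SE 0.11, adjusted p = 0.0216) was lost when any 1 replicate number was left out (adjusted p up to 0.173) and under the GC correction (0.15, adjusted p = 0.386). *Ptges2* (ENSMUSG00000026820) lies on the forward strand of chromosome 2 from 32395896 to 32405772, and its nearest protein-coding neighbour, *Lcn2*, which encodes the iron-binding acute-phase protein lipocalin 2, lies 7644 bases away on the reverse strand (32384633 to 32388252). *Lcn2*, looked up after the values of *Ptges2* were seen, had a mean of 3.82 CPM in CTRL and 2995 CPM with IL-1β in LacZ fibroblasts, and 2.53 and 414 CPM in iCre fibroblasts. With TNFα the means were 12.5 CPM (LacZ) and 12.2 CPM (iCre). Counts per gene do not show where along *Ptges2* its reads fell, and any link to the neighbour was not tested.

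*Ptges3* responded differently to 3 of 4 ligands in LacZ and iCre fibroblasts. In LacZ fibroblasts it was at 52.3, 53.6, 51 and 49.8 CPM in CTRL and rose with all 4 ligands, to 117, 104, 103 and 107 CPM with TGFβ (log2 fold change 1.07, SE 0.08, adjusted p = 5.22e-06). The log2 fold changes for IL-1β (0.55), TNFα (0.48) and bFGF (0.49) were smaller (adjusted p = 0.00154, 0.000719 and 0.017). The bFGF call was lost without replicate 1 (adjusted p = 0.0779), 3 (0.133) or 4 (0.101). In iCre fibroblasts the CTRL level was 52.3, 55, 52.5 and 53.4 CPM, a difference of 0.03 from LacZ (SE 0.06). With TGFβ the level was 58.7, 53.9, 59.4 and 62.4 CPM (0.16, SE 0.08, adjusted p = 0.133), a rise that was called with the GC correction (0.36, adjusted p = 0.0038) and without replicate 2 (0.21, 0.0467). The level was lower with IL-1β, at 40.2, 35.7, 32.9 and 45.3 CPM, and below CTRL (log2 fold change −0.45, SE 0.10, adjusted p = 0.0161). That fall was lost without replicate 1 or 3 (adjusted p up to 0.0888) and under the GC correction (adjusted p = 0.208).

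The interaction for *Ptges3* was called with TGFβ (log2 fold change −0.94, SE 0.10, adjusted p = 2.42e-05), IL-1β (log2 fold change −1.01, SE 0.13, adjusted p = 0.000154) and TNFα (log2 fold change −0.65, SE 0.11, adjusted p = 0.000823). Under each of these ligands the 4 iCre libraries lay below the 4 LacZ libraries. With the GC correction and the block the 3 values were −0.70, −0.80 and −0.45, and each was still called. With bFGF, iCre was below LacZ in 4 of 4 pairs (−0.25, adjusted p = 0.529, with the block 0.023). *Ptges3* (ENSMUSG00000071072, chromosome 10 from 128058954 to 128077272) has a processed pseudogene, *Ptges3-ps*, with 5948 counts over all libraries against 93820 for *Ptges3*, so part of its reads may be shared between both.

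*Ptgis*, the prostacyclin synthase gene (ENSMUSG00000017969), was high in every group, and its group means spanned a 2.23-fold range. It was at 332, 229, 248 and 245 CPM in CTRL and 489, 299, 361 and 352 CPM with TGFβ in LacZ fibroblasts (log2 fold change 0.53, SE 0.17, adjusted p = 0.0361), groups that overlapped. Within replicate numbers, all 4 ligands were above CTRL in 4 of 4, in LacZ and in iCre fibroblasts alike, and the block called all 8 comparisons, of which TGFβ in iCre was lost with the GC correction added (adjusted p = 0.12). Without the block, IL-1β (0.64, adjusted p = 0.0293) and TNFα (0.92, adjusted p = 0.00316) were called in iCre fibroblasts. DESeq2 added TGFβ in iCre (adjusted p = 0.0336) and TNFα in LacZ (0.041). The highest level was with TNFα in iCre, at 528, 453, 697 and 667 CPM against 476, 279, 345 and 356 CPM in LacZ (log2 fold change 0.71, SE 0.19, adjusted p = 0.019), higher in 4 of 4 pairs. The calls for TGFβ in LacZ, IL-1β in iCre and TNFα between the viruses were each lost without replicate 3 or 4, and that of IL-1β also without replicate 1 (adjusted p up to 0.134, 0.151 and 0.146), and the latter pair also under the GC correction (adjusted p = 0.14 and 0.13). With IL-1β it was higher in iCre in 4 of 4 pairs (0.38, adjusted p = 0.26, with the block 0.0029). With the GC correction it was 0.13 (adjusted p = 0.769), and with that and the block 0.15 (adjusted p = 0.346). On chromosome 2 (167191805 to 167240604), exons of *Ptgis* overlap those of genes on the opposite strand by up to 156 bases, and the strand setting of the counting is not given in the sources used here.

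*Cbr1* (ENSMUSG00000051483, chromosome 16 from 93605853 to 93610505) fell with TGFβ. In LacZ fibroblasts it was at 37.9, 38.7, 37.2 and 35.1 CPM in CTRL and 17.1, 18.5, 20.1 and 21.4 CPM with TGFβ (log2 fold change −0.93, SE 0.09, adjusted p = 2.42e-05), and in iCre fibroblasts at 32.5, 44.1, 39.2 and 34.7 and 21.9, 26.3, 22.6 and 25.6 CPM (log2 fold change −0.62, SE 0.11, adjusted p = 0.00137), without overlap in either virus. With TNFα it fell in LacZ (25.9, 29.1, 28.1 and 25.9 CPM, log2 fold change −0.45, SE 0.07, adjusted p = 0.00167), whereas its level in iCre fibroblasts was 36.2, 42.6, 38.4 and 36 CPM (0.06, SE 0.11). The viruses differed with TNFα (log2 fold change 0.51, SE 0.09, adjusted p = 0.00237), in 4 of 4 pairs. The interaction (0.50, adjusted p = 0.0125) was lost without replicate 1, 3 or 4 (adjusted p up to 0.113). Between the viruses, TGFβ (0.29) and IL-1β (0.38) missed the threshold (0.149 and 0.0994) and passed with the block (adjusted p = 0.0345 and 0.00569), of which TGFβ was lost again with the GC correction (0.0969). The fit of all 40 libraries called IL-1β (0.0327). The block also called bFGF against CTRL in iCre fibroblasts (−0.26, 0.0416). With bFGF (−0.40) and IL-1β (−0.27) *Cbr1* was below CTRL in 4 of 4 replicate numbers in LacZ fibroblasts, which the block called (adjusted p = 0.00303 and 0.0104) and the edgeR test with no covariate did not (0.0624 and 0.0908). For bFGF, DESeq2 (0.0137), RLE normalisation (0.0475) and the fit of all 40 libraries (0.0254) passed as well.

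*Hpgd*, the inactivating dehydrogenase (ENSMUSG00000031613, chromosome 8 from 56294585 to 56321043), had a lower group mean with every ligand than in CTRL. In LacZ fibroblasts it was at 2.52, 0.856, 5.16 and 4.42 CPM in CTRL, 0.528, 0.176, 0.493 and 0.897 CPM with bFGF and 0.364, 0.109, 0.712 and 0.648 CPM with IL-1β. The CTRL libraries differed widely among themselves, and replicate 2 was lowest. The log2 fold changes in LacZ fibroblasts were −2.62 with bFGF (adjusted p = 0.0205), −1.65 with TGFβ (0.0205), −2.82 for IL-1β (0.0106) and −1.86 for TNFα (0.0325). In iCre fibroblasts TGFβ (−1.82), IL-1β (−2.22) and TNFα (−2.71) were called (adjusted p = 0.0336, 0.0363 and 0.039). With bFGF the value (−1.85, adjusted p = 0.145) passed with the block (0.00453) and by DESeq2 (0.022). All 7 calls were lost when replicate 4 was left out, 6 of them without replicate 3 and 5 without replicate 1 (adjusted p up to 0.214). In iCre with TGFβ the value was −1.15 without replicate 1. The 3 in iCre fibroblasts were also lost under the GC correction (adjusted p = 0.0916, 0.107 and 0.0808). Between the viruses *Hpgd* was lower in iCre in 4 of 4 pairs with TGFβ (−1.12) and with TNFα (−1.78), which missed the threshold (0.106 and 0.107). They passed with the block (adjusted p = 0.0231 and 0.0353) and by DESeq2 (0.0154 and 0.0459), but neither passed with the block and the GC correction (0.327 and 0.11).

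*Ptgds* (ENSMUSG00000015090, chromosome 2 from 25466709 to 25470046) is given in counts, since few libraries with a ligand held more than a handful. In CTRL the 4 LacZ libraries held 39, 36, 15 and 11 counts and the 4 iCre libraries 35, 18, 38 and 9. With ligands no LacZ library held more than 5 counts, and with bFGF and TGFβ no iCre library held more than 4. In iCre fibroblasts IL-1β was the exception, at 24, 7, 13 and 0 counts (−1.72, adjusted p = 0.156, and 0.000105 with the block), and with TNFα the counts were 9, 0, 0 and 0. All 4 ligands were called in LacZ (adjusted p from 0.00296 to 0.0194), and bFGF, TGFβ and TNFα in iCre fibroblasts (0.0199, 0.00127 and 0.0298). With bFGF and TNFα in both viruses the call was lost without replicate 3 (adjusted p up to 0.197 over the replicates left out). A list of 5 endothelial markers was also highest in CTRL of LacZ fibroblasts, at a summed 25 to 26.8 CPM against at most 17 CPM in the LacZ libraries with a ligand. In iCre fibroblasts the sum was 11.5 to 19.6 CPM in CTRL and 4.78 to 17.5 CPM with a ligand. The summed level of 3 cardiomyocyte markers was 14.7 to 111 CPM in CTRL of LacZ fibroblasts and at most 30 CPM in LacZ libraries with a ligand, mostly from *Tnnt2*, with *Actc1* at 0 in 31 of 40 libraries. The part of these markers in the fall of *Ptgds* and *Hpgd* was not tested.

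**Figure D5:**
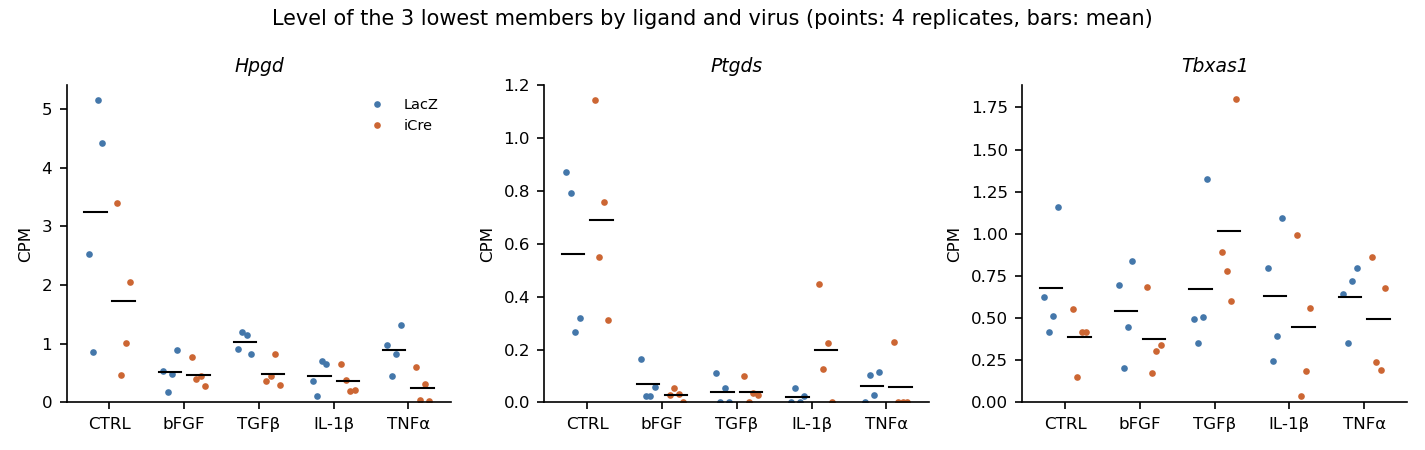
CPM of the 3 lowest members in 5 treatments, for LacZ (blue) and iCre (orange) fibroblasts, on linear axes that start at 0. Points are 4 replicates and bars are means. Mean Hpgd was 3.24 CPM in CTRL of LacZ and at most 1.02 CPM with a ligand, and Ptgds was highest in both CTRL groups.

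*Tbxas1*, thromboxane synthase (ENSMUSG00000029925, chromosome 6 from 38875404 to 39084585, with up to 144 bases of exon shared with genes on the opposite strand), stayed below 2 CPM in each library. It was at 0.625, 0.417, 0.515 and 1.16 CPM in CTRL of LacZ fibroblasts, and the only call among its 13 comparisons of 2 groups was a rise with TGFβ in iCre fibroblasts, from 0.556, 0.153, 0.419 and 0.417 to 0.893, 0.777, 0.599 and 1.8 CPM (log2 fold change 1.42, SE 0.48, adjusted p = 0.0389). This call was lost without replicate 1 (adjusted p = 0.058), 3 (0.0722) or 4 (0.207). The level moved with the replicate number, with medians over 10 libraries of 0.69, 0.241, 0.433 and 0.816 CPM for replicates 1 to 4. The summed level of 7 macrophage and leukocyte markers had medians of 82.9, 35.4, 39.6 and 99.5 CPM in the same libraries. In the called comparison that list went the other way, from 28.7 to 82.9 CPM in CTRL to 16.7 to 60 CPM with TGFβ in iCre fibroblasts. *Lyz2* was its most abundant gene (median 46.5 CPM), and its part in the level of *Tbxas1* was not tested.

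The pathway around these enzymes was read from 3 lists. Of 16 genes for arachidonate release 14 were tested, and of these 2 were higher and 3 lower with TGFβ, 2 higher with IL-1β and 2 higher with TNFα in LacZ fibroblasts, with list medians of −0.19, −0.15 and −0.09 beside −0.17, −0.10 and −0.08 over all genes. Of all genes 36.9%, 20.7% and 21.3% were called, so that no count without the block stood above its background. With the block the counts were 3 higher and 3 lower, 3 and 3, and 3 and 1, against 42%, 33.5% and 35.5%. The IL-1β count was then above its background, on 14 genes, and that of TGFβ was near it. *Pla2g4a*, cytosolic phospholipase A2, rose with TGFβ (2.14, adjusted p = 0.000159), IL-1β (1.88, 0.000625) and TNFα (1.02, 0.0308), and was lower in iCre than in LacZ with IL-1β (−0.76, 0.0388). *Pla2g4c*, a related phospholipase, rose with TNFα (2.49, 5.7e-05) and was lower in iCre with TNFα (−3.44, 0.000197). Between the viruses 0 or 1 of the 14 was higher and 0 to 2 lower in each treatment, against 0% to 27.3% of all genes, and with the block 1 or 2 were higher and 0 to 3 lower, against 13.9% to 32.2%.

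Of 17 genes for other prostaglandin-converting enzymes 16 were tested, and of these 2 were higher and 10 lower with TGFβ in LacZ fibroblasts (list median −0.63 beside −0.17 over all genes), and 2 higher and 7 lower in iCre fibroblasts (−0.49 beside −0.11). Of all genes 36.9% and 37.4% were called in these comparisons. *Akr1c14*, an aldo-keto reductase, fell with TGFβ in LacZ (−4.40, adjusted p = 1.48e-05) and in iCre fibroblasts (−4.89, 5.5e-06). *Akr1b3*, aldose reductase, was higher with TGFβ, IL-1β and TNFα in LacZ (0.72, 0.49 and 0.91). With TNFα, *Akr1c18* was higher (4.57, adjusted p = 0.00119) and *Akr1c14* lower (−3.71, 0.00187) in iCre than in LacZ fibroblasts. The carbonyl reductase *Cbr2* rose with IL-1β in LacZ (3.04, 0.000407) and was lower in iCre with IL-1β (−1.37, 0.0148). In CTRL none of the 16 was called between the viruses without the block (0.0754% of all genes), and with it 3 were higher and 3 lower in iCre (14.5%).

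All 12 genes for prostanoid transport and receptors were tested, and 5 rose with IL-1β and none was called lower in LacZ fibroblasts (list median 0.72 beside −0.10 over all genes, of which 20.7% were called). With the block 6 rose and 2 fell (33.5% of all genes). With TNFα 4 rose and 1 fell (21.3%), and with the block 4 and 3 (35.5%). *Slco2a1*, the prostaglandin transporter, rose with IL-1β (1.29) and TNFα (2.07), and *Ptgir*, the prostacyclin receptor, with both too (1.29 and 1.42). With TGFβ *Ptgir* was lower (−1.85, adjusted p = 0.000458). *Slco3a1*, another organic anion transporter, rose with TNFα (3.53) and was lower in iCre fibroblasts with TNFα (−1.57, adjusted p = 0.000334).

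By a rule on group means, the genes most alike in pattern were named for 4 members, over 10 group means of log2 CPM and among 6247 protein-coding genes. For *Ptgs1* they were *Adgra2* (Pearson r = 0.98), *Arhgef15* (0.97) and *Lbhd2* (0.97), for *Ptgs2* *Garem2* (0.99), *Syvn1* (0.98) and *Ppme1* (0.98). For *Ptges* they were *Slco2a1* (0.97), *Pik3r5* (0.97) and *Serp2* (0.96), and for *Ptges2* *Etv3* (0.96), *Dgat2* (0.93) and *Sprr2b* (0.93). Over the 40 libraries, r was 0.92 for *Adgra2*, 0.83 for *Garem2*, 0.56 for *Slco2a1* and 0.92 for *Etv3*. These are the highest of many correlations over 10 points and a description, and groups share ligands, viruses and replicate numbers.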

How the data were processed

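The samples were 40 polyA RNA-seq libraries of TAK1fl/fl cardiac fibroblasts in 10 groups of virus and ligand with 4 replicates each, grouped by the labels. The authors checked reads with FastQC (version 0.10.1 in the submitters' processing notes, another in the methods), aligned them to mm10 with STAR 2.6 and counted them per gene with HTSeq 0.10.0, per the methods. The deposited values are raw counts per Ensembl gene. The annotation release and the strand setting of the counting are not given in the sources used here, and labels and methods name different library kits. All sample columns of the table were used. Of 55414 identifiers, 52133 were in GENCODE M21 and carried 99.59% of the counts, and positions and names come from it.

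From the counts, genes with at least 10 counts in total were tested in edgeR 4.0.16 by quasi-likelihood (R 4.3.3, TMM, Benjamini-Hochberg over 25210 genes, threshold 0.05), with the libraries of the groups compared and no covariate. CPM are TMM-scaled, and exonic length is the union of exons. Depth was 25360947 to 66160732 counts, and the replicate number limits the precision. Over genes of at least 10 CPM, deviations of same-numbered libraries from their group means correlated at 0.372 to 0.878 in 52 of 52 pairs, above the limit of 0.1, so the numbers pair the libraries. Same-group libraries differed beyond sampling noise (chi-square per degree of freedom 13.2 to 250.0). Alternatives were DESeq2 1.42.0, RLE normalisation, filterByExpr, no filter, each replicate number left out, a replicate block, all 40 libraries in 1 fit, and an offset for transcript GC content with and without the block. The main edgeR fit was tested on simulated data for iCre against LacZ and for the interaction, both with IL-1β. The simulated libraries held no replicate effect, and the alternatives were not tested in this way.

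All 10 genes are named whatever their values, with *Map3k7* as a check of the labels. For 4 of them the 3 protein-coding genes with the most similar group means are named (mean of at least 1 CPM, range of at least 1 on the log2 scale). From 3 pathway lists, genes past the threshold are named, at most 3 in each direction per comparison. *Lcn2* was chosen after its neighbour's values were seen, and the tests of the *Ptgs2* to *Ptgs1* ratio were added after the data were seen. The genes, pathway lists and marker lists were chosen with earlier results of these data known. No sequence was used for *Ptgis*.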

Additional observations from a re-analysis of the deposited data

Results flagged for a closer look

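In 100 groups of 4 libraries (10 genes in 10 groups), 8 held a library far from the other 3 by Dixon's criterion, which chance alone gives in about 1 of 20 groups (5%). *Ptgs1* was low in replicate 1 of LacZ CTRL (45.6 CPM) and of LacZ TNFα (44.9 CPM). *Ptgs2* was low in replicate 1 of LacZ bFGF (17.1 CPM) and of iCre TGFβ (414 CPM) and high in replicate 2 of LacZ TNFα (112 CPM). *Ptgis* was low in replicate 2 of iCre TGFβ (350.3 CPM). *Ptgds* was high in replicate 1 of iCre TNFα (0.229 CPM, 9 counts, the others at 0), and *Tbxas1* in replicate 4 of LacZ TGFβ (1.33 CPM, 35 counts).

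The effect of a ligand differed between LacZ and iCre fibroblasts, by the interaction term of edgeR, in 6 cases. On the log2 scale these were *Ptges3* with TGFβ (−0.94), IL-1β (−1.01) and TNFα (−0.65), *Ptges2* with IL-1β (−1.08) and TNFα (0.38), and *Cbr1* with TNFα (0.50).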

How the results depend on the processing

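Of 40 pairs of gene and ligand, 23 were called in LacZ and 20 in iCre fibroblasts, of 50 pairs of gene and treatment 9 differed between the viruses, and 6 interactions were called. With 1 replicate number left out these counts were 13 to 27, 10 to 25, 7 to 13 and 4 to 6, and were lowest without replicate 3 or 4. Shares of all genes called moved too. Under IL-1β they were 9.22% to 23.4% in LacZ and 6.85% to 18.1% in iCre, against 20.7% and 16.3% with all replicates. With TNFα they were 13% to 27.1% between the viruses and 5.39% to 15.4% for the interaction, against 27.3% and 16.1%. Differences between the viruses numbered 16 by DESeq2, 25 with the replicate block and 22 with the block and the GC correction. The block kept all 58 calls of the 10 genes and added 38, each given beside its gene or in its count, and it changed no other call of these genes. With the GC correction, 8 of the 38 were not kept. DESeq2 added 15 calls. The block raised the ligand calls to 32 and 30 and the interactions to 9. The GC correction lost 8 calls and added 2 (*Ptgs1* and *Ptges3* with TGFβ in iCre), and all 40 libraries in 1 fit added 6 and lost 4 (*Ptgs2* with bFGF in LacZ, *Ptges* and *Tbxas1* with TGFβ in iCre, and the *Cbr1* interaction with TNFα). With the GC correction and the block, 2 were lost (*Hpgd* with TGFβ in iCre and the *Ptges2* interaction with TNFα). RLE normalisation, DESeq2 and no filter lost none. Under filterByExpr 57 of the 58 had a value and were kept, and *Ptgds* with TNFα in LacZ was filtered out.

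None of the 58 called values changed sign under a setting that gave them a value. Of 112 values not called, 28 did under at least 1 setting. Among these, *Ptgs2* between the viruses with TGFβ was −0.0177 without replicate 3 and −0.127 without replicate 4 (up to 0.243 without 1 replicate). Under IL-1β it was −0.00916 by DESeq2, −0.00989 with RLE, −0.0136 with filterByExpr, −0.357 without replicate 4 (up to 0.232 without 1 replicate) and −0.0998 with the replicate block. The cause was not tested. *Ptgds*, *Tbxas1* and *Hpgd* are limited by their counts.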
